A study of Taeniopygia guttata with 24 samples.

Results

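The solute carriers are the genes whose symbol in the supplementary tables of the study begins with SLC and a digit. Of 80 such genes, each paired with the counts by its Ensembl identifier, 79 reached 1 cpm (a count scaled to the size of its library) in 3 samples or more, and these 79 are described here out of 13891 genes tested and 18618 genes counted. The gene left out was SLC23A1, an ascorbate carrier. The genes nearest to the limit that remained were SLC30A2, SLC14A1 and SLC5A11. RNA-Seq was performed on the telencephalon of zebra finches aged 1, 20 or 65 dph (days post hatch) and of adults, with males and females at every age. The descriptions of the samples give adults as older than 170 dph. A sample was a pool of RNA from 3 birds of the same sex and age, and 3 such samples were made for each sex at each age, 24 in all. The birds carried no treatment, transgene or mutation.

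Solute carriers move ions, nutrients, transmitters and metabolites across the plasma membrane and the membranes of vesicles, lysosomes and mitochondria, mostly by exchange or by coupling to a gradient of sodium, protons or chloride. In the brain, one set loads transmitters into synaptic vesicles and another clears them from the synaptic cleft into neurons and astrocytes. Others set the chloride gradient that determines the sign of the GABA response, or supply glucose, amino acids, metals, choline and hormones across the barriers of the brain. The roles named here are known from mammals and were not measured in these birds. SLC9A3R2 carries the same prefix but encodes a scaffold protein that binds sodium-proton exchangers, and it is counted here because the rule includes it.

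The total count of a sample ranged from 16680575 to 28772178 (median 22876461), so that 3 counts corresponded to between 0.104 and 0.180 cpm. Replicates of one group differed by more than sampling noise, and no library appeared to be present more than once. Levels are cpm after TMM normalization, and they are compared between samples but not between genes, as gene lengths were not used here. In bulk tissue, fewer cells of a type and less RNA per cell cannot be told apart. Symbols were available for 3515 of the tested genes only, mostly because the study listed them for a result. Of the 79 members, 62 have a symbol only through an age result of these same samples. The other 17 have one also from a list that no such result chose, 14 from that of Z-linked genes and the others from a table of methylation over all genes, although 6 of these 17 were in lists of expression results as well. The count of members that change with age is thus a description, not independent evidence that carriers as a class change. The same holds for the companion genes and cell type markers given below, which were found through the same symbols.

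The effect of age was assessed as the mean of 20 dph, 65 dph and adults over 1 dph, in both sexes. After 1 dph, 60 members were higher, 15 were lower and 4 (SLC12A2, SLC27A6, SLC25A46 and SLC25A51, all Z-linked) were not called. Over all tested genes, 35.1% were called higher and 37.2% lower, and the median log2 fold change was 1.00 in the members against -0.02 in all genes. Of the 17 members with a symbol from a list of Z-linked or of all genes, 11 were called higher and 2 lower, with a median log2 fold change of 0.67. The change exceeded 1 on the log2 scale in 41 of the members called higher, and was under -1 in 6 of those called lower. SLC30A2, SLC14A1, SLC5A11, SLC6A14 and SLC30A3 were under 1 cpm in every sample at 1 dph. They passed the limit of 1 cpm through later samples only, so that their rise is tied to that limit. In 58 members, the 18 later samples did not overlap the 6 samples at 1 dph. The same count over all tested genes was not made, and most members have a symbol only through an age result.

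**Figure D1:**
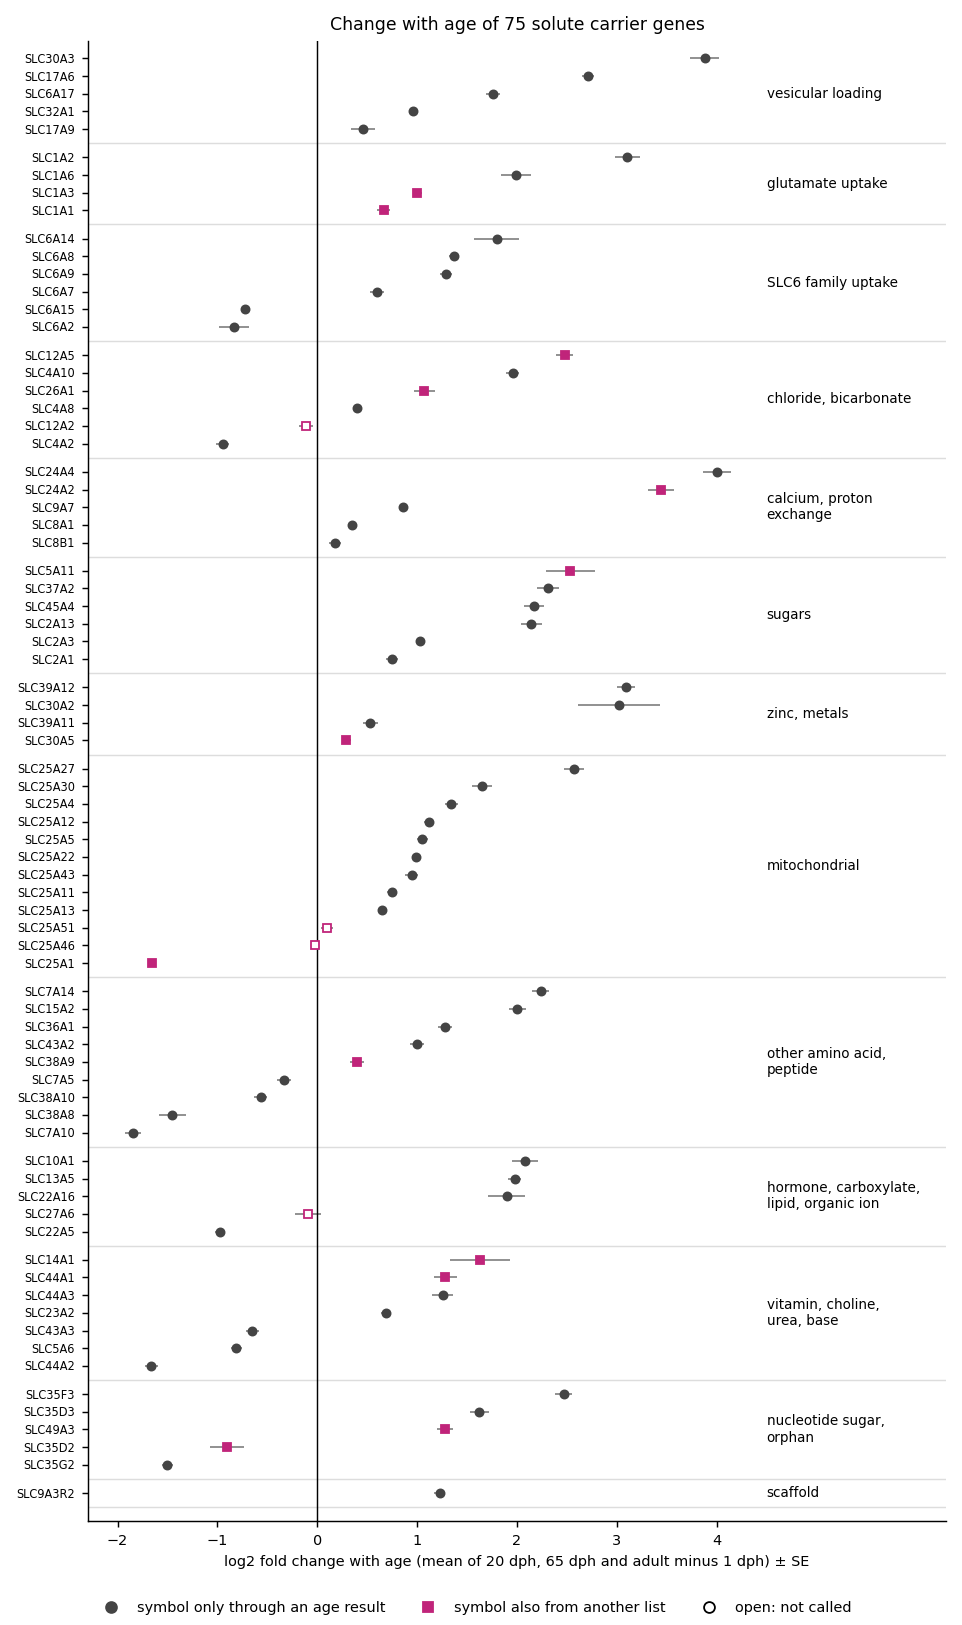
Log2 fold change with age of 75 of the 79 members, with its standard error, arranged by role. Filled symbols passed the test, circles mark a symbol known only through an age result and squares one known from another list as well. The values run from -1.84 for SLC7A10 to 4.0 for SLC24A4, and most members lie to the right of 0.

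All 5 members that load vesicles were higher after 1 dph, against 35.1% of all tested genes. All 5 have a symbol only through an age result, so that this count describes the set only. SLC17A6 (ENSTGUG00000004570, chromosome 5), the vesicular glutamate transporter VGLUT2, had 123, 151 and 182 cpm as the lowest, median and highest of 6 samples at 1 dph. The same 3 values were 995, 1024 and 1056 cpm at 20 dph, 947, 1010 and 1052 cpm at 65 dph, and 886, 970 and 1011 cpm in adults. The later samples overlapped one another and lay well above every sample at 1 dph, a 6.55-fold rise (log2 fold change 2.71 ± 0.06 SE, adj. P-value 5.09e-22). SLC32A1 (ENSTGUG00000004537, chromosome 20), which loads GABA and glycine, had means of 133, 254, 259 and 259 cpm at the 4 ages in order. Its rise was 1.95-fold (log2 fold change 0.96 ± 0.04 SE), and its lowest later sample had 241 cpm, above the highest at 1 dph with 154 cpm.

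The vesicular zinc transporter SLC30A3 exhibited the second largest rise of all members. Its 6 samples held between 0.261 and 0.725 cpm at 1 dph, 7.16 and 11.9 cpm at 20 dph, 6.87 and 9.89 cpm at 65 dph, and 5.76 and 7.89 cpm in adults. This is a 14.7-fold rise (log2 fold change 3.88 ± 0.14 SE, adj. P-value 9.9e-18), and the 6 samples at 1 dph held 7 to 20 counts each. SLC30A3 passed the limit of 1 cpm through later samples only. SLC6A17, a vesicular transporter of neutral amino acids, averaged 80.0 ± 8.72 cpm at 1 dph, 294 ± 18.2 cpm at 20 dph, 272 ± 12.9 cpm at 65 dph and 249 ± 34.0 cpm in adults (SD, n = 6 each), a 3.39-fold rise. SLC17A9, the vesicular carrier of ATP, peaked at 20 dph with 3.14 ± 0.276 cpm, against 1.71 ± 0.227 cpm at 1 dph, and its adult mean of 1.79 ± 0.298 cpm lay within the spread at 1 dph. Its log2 fold change of 0.46 lost its call without TMM (0.21) and without male sample 3 at 1 dph (0.39).

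**Figure D2:**
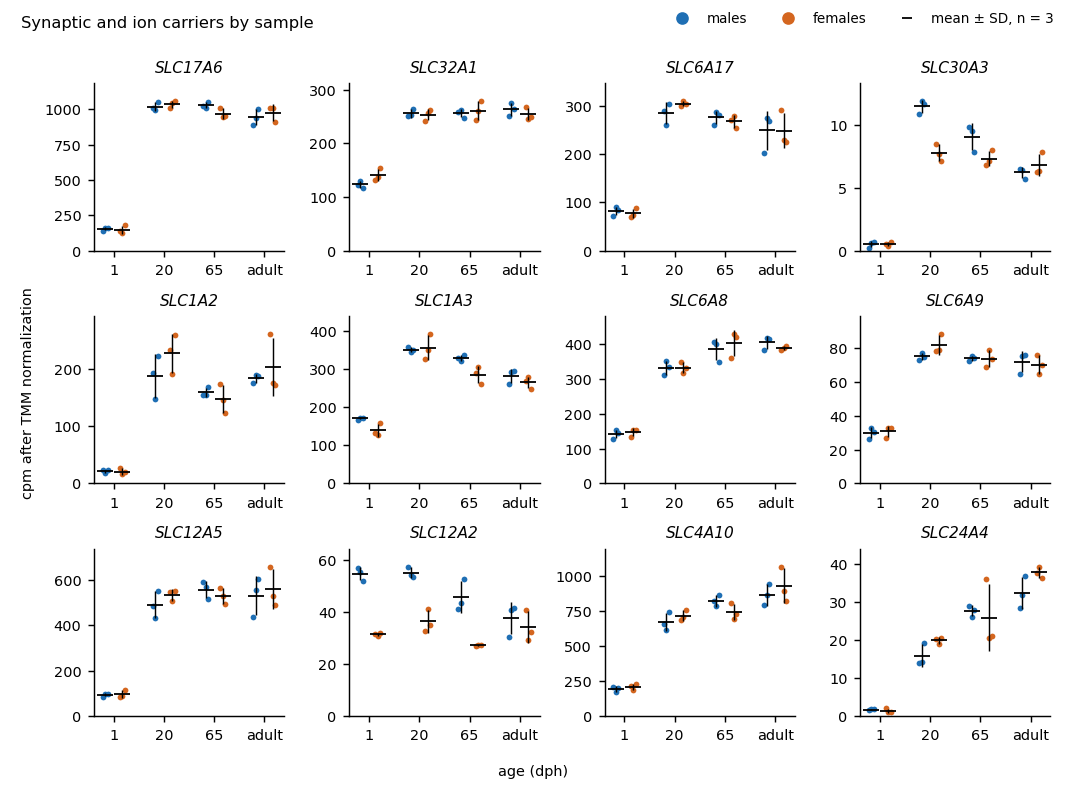
Level of 12 synaptic and ion carriers in each of the 24 samples, in cpm after TMM normalization against age in dph, with males in blue and females in orange. Black marks are the mean ± SD of 3 samples. In SLC17A6, the later samples lie between 886 and 1056 cpm and those at 1 dph between 123 and 182 cpm. In SLC12A2, the sexes are apart at the 3 younger ages and overlap in adults.

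Glutamate is cleared from the synaptic cleft by the SLC1 family, and all 4 members were higher after 1 dph, against 35.1% of all tested genes. Of these, SLC1A2 and SLC1A6 have a symbol only through an age result. SLC1A2 (ENSTGUG00000010089, chromosome 5), the transporter GLT-1 of mature astrocytes, had 15.8, 21.5 and 26.6 cpm as the lowest, median and highest at 1 dph. It had 148, 208 and 259 cpm at 20 dph, 123, 154 and 173 cpm at 65 dph, and 172, 181 and 261 cpm in adults. This is an 8.60-fold rise (log2 fold change 3.10 ± 0.13 SE), with a fall between 20 and 65 dph (log2 fold change -0.43, adj. P-value 0.00965). The other astrocytic transporter, SLC1A3 (GLAST, on chromosome Z), which in mammals is also present in radial glia, averaged 155 ± 20.0, 353 ± 21.7, 306 ± 28.6 and 273 ± 17.8 cpm at the 4 ages in order (SD, n = 6 each). It rose 2.01-fold over 1 dph and was called lower at each later step. The neuronal transporter SLC1A1 (EAAC1) averaged 29.8 ± 6.29, 56.4 ± 5.63, 45.6 ± 6.35 and 40.1 ± 3.18 cpm, a rise of 1.59-fold that was largest at 20 dph. SLC1A6, which in mammals is best known from Purkinje cells of the cerebellum, rose 3.97-fold and remained low, with 7.68 ± 0.935 cpm at 65 dph against 1.78 ± 0.524 cpm at 1 dph.

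The share of SLC1A2 relative to SLC1A3 was compared within each sample, on the log2 scale, so that scaling between libraries does not enter. The ratio was 2.08 higher at 20 dph than at 1 dph, a 4.24-fold change, and the 6 samples of each age did not overlap (exact two-sided permutation test over 6 against 6 samples, p = 0.00216, the smallest p that 924 permutations can give, 0.00649 after Benjamini-Hochberg adjustment over 9 tests). Between 20 and 65 dph the difference was -0.22 and did not pass (exact permutation test, adjusted p = 0.125). In adults the ratio was 0.49 higher than at 65 dph, again without overlap (exact permutation test, adjusted p = 0.00649), and leaving out any one sample kept the difference between 0.40 and 0.54.

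**Figure D3:**
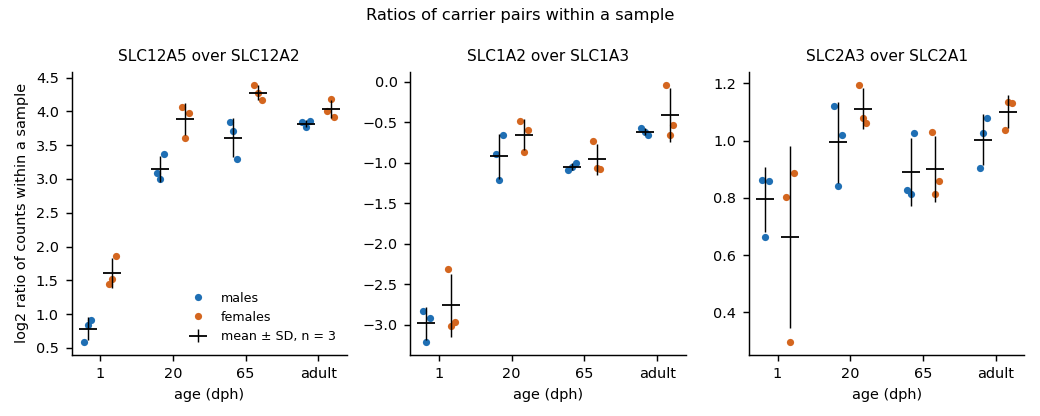
Log2 ratio of counts of 3 pairs of carriers within each sample against age in dph, with males in blue and females in orange and the mean ± SD of 3 samples in black. SLC12A5 over SLC12A2 has means of 3.52 at 20 dph and 1.20 at 1 dph, and SLC1A2 over SLC1A3 has means of -0.79 at 20 dph and -2.87 at 1 dph. The vertical axes differ between panels and do not start at 0.

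Of the 7 members of the SLC6 family that take up transmitters and amino acids, 5 were higher and 2 lower. Over all tested genes, 35.1% were called higher and 37.2% lower. All 7 have a symbol only through an age result, so that this count describes the set only. The glycine transporter SLC6A9 averaged 78.5 ± 5.31 cpm at 20 dph and 30.4 ± 2.95 cpm at 1 dph, and was not called at a later step. The creatine transporter SLC6A8 averaged 144 ± 11.0, 331 ± 16.4, 393 ± 32.3 and 396 ± 15.2 cpm in order of age, with a further rise between 20 and 65 dph (log2 fold change 0.25, adj. P-value 0.0018). The proline transporter SLC6A7 rose and then fell, with means of 32.8 ± 3.53, 65.7 ± 6.03, 46.2 ± 5.98 and 40.6 ± 7.26 cpm. SLC6A14, a carrier of neutral and cationic amino acids, rose 3.48-fold but did not exceed 3.26 cpm in any sample. It passed the limit of 1 cpm through later samples only.

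The largest falls of the 2 SLC6 members called lower came at different ages. SLC6A15, a carrier of branched-chain amino acids, fell at the first step and slightly at the next, with means of 190 ± 9.70, 122 ± 5.76, 112 ± 4.41 and 111 ± 1.82 cpm in order of age. The noradrenaline transporter SLC6A2 held 1.88, 2.87 and 3.51 cpm at 1 dph and 2.46, 2.99 and 3.65 cpm at 20 dph as lowest, median and highest. At 65 dph it held 0.661, 1.21 and 1.53 cpm, and in adults 0.866, 1.11 and 1.46 cpm. Its fall between 20 and 65 dph was the largest of any member at that step (log2 fold change -1.39, adj. P-value 1.64e-05), and the samples before and after it did not overlap. In mammals, its RNA is found mainly in cell bodies of the brainstem, whose axons reach the telencephalon.

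Among the 6 carriers of chloride and bicarbonate, 4 were higher, 1 was lower and 1 was not called. Over all tested genes, 35.1% were called higher and 37.2% lower. Of the 6, SLC4A2, SLC4A8 and SLC4A10 have a symbol only through an age result, so that this count describes the set only. SLC12A5 (ENSTGUG00000005860, chromosome 20), the potassium-chloride cotransporter KCC2 that extrudes chloride from neurons, had 86.0, 92.8 and 116 cpm at 1 dph as the lowest, median and highest. It had 433, 527 and 552 cpm at 20 dph, 493, 547 and 589 cpm at 65 dph, and 436, 542 and 659 cpm in adults. The 5.58-fold rise (log2 fold change 2.48 ± 0.08 SE, adj. P-value 1.81e-18) was thus complete at 20 dph, and neither later step was called. SLC12A2 (ENSTGUG00000006546, chromosome Z), the cotransporter NKCC1 that brings chloride into cells, averaged 43.0 ± 12.9, 45.7 ± 10.7, 36.4 ± 10.9 and 35.8 ± 5.85 cpm in order of age, and its log2 fold change with age was -0.11 ± 0.07 (SE). It was called lower without TMM (-0.36) and in males alone (-0.26), and lower at 65 dph than at 20 dph in both sexes together (log2 fold change -0.34, adj. P-value 0.00349).

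The log2 ratio of SLC12A5 to SLC12A2 within a sample was 2.32 higher at 20 dph than at 1 dph, a 4.99-fold change without overlap (exact permutation test, p = 0.00216, adjusted p = 0.00649). The next difference was 0.43, and its call depended on how sex was treated. It did not pass when all 12 samples were exchanged (exact permutation test, adjusted p = 0.131, with an unadjusted p of 0.0476 without male sample 3 at 65 dph), and it passed when ages were exchanged within each sex (exact permutation test over 400 arrangements, p = 0.01, adjusted p = 0.0225 over 9 tests), a test added after the values were seen. The last difference was -0.02 (adjusted p = 0.935 by the exact permutation test). The sex difference of the ratio was not tested. Its means were 0.78 ± 0.17 in males and 1.61 ± 0.22 in females at 1 dph (SD, n = 3 each), and 3.15 ± 0.20 in males and 3.88 ± 0.24 in females at 20 dph. The means were 3.61 ± 0.28 in males and 4.28 ± 0.11 in females at 65 dph, and 3.82 ± 0.05 in males and 4.04 ± 0.13 in females as adults. SLC12A2 is on chromosome Z, and its own sex difference is given with the other Z-linked members.

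SLC4A10, a sodium-coupled bicarbonate transporter of neurons, rose to 692 ± 54.4 cpm at 20 dph, against 202 ± 19.4 cpm at 1 dph, and continued to 780 ± 61.8 cpm at 65 dph and 895 ± 98.9 cpm in adults. Of these later steps, the last was called (log2 fold change 0.20, adj. P-value 0.0452). SLC4A8, of the same sodium-coupled kind, rose at 20 dph and fell at both later steps, with means of 138, 206, 179 and 161 cpm. SLC26A1, a sulfate and anion exchanger on chromosome Z, rose 2.11-fold. The chloride-bicarbonate exchanger SLC4A2 fell to 18.3 ± 2.35 cpm at 20 dph, against 33.6 ± 2.34 cpm at 1 dph, and was level thereafter. Of 6 kinases that regulate the chloride cotransporters, OXSR1 and WNK2 could be paired with the counts. Both were lower after 1 dph (log2 fold changes -0.95 and -0.27), against 37.2% of all tested genes. Their symbols come from the study's tables, mostly of genes listed for a result, so that this describes the paired genes only.

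All 7 exchangers of calcium and protons were called higher, with log2 fold changes between 0.18 for SLC8B1 and 4.0 for SLC24A4. Over all tested genes, 35.1% were called higher, and all but SLC24A2 have a symbol only through an age result. In females alone, 6 of the 7 were called. In SLC8B1, later samples overlapped those at 1 dph. SLC24A4 (ENSTGUG00000012580, chromosome 5) and SLC24A2 are potassium-dependent sodium-calcium exchangers, which extrude calcium. SLC24A4 had 1.14, 1.67 and 2.02 cpm at 1 dph, 14, 19.1 and 20.7 cpm at 20 dph, 20.7, 27.1 and 36.2 cpm at 65 dph, and 28.5, 36.6 and 39.4 cpm in adults as lowest, median and highest. This 16.0-fold rise was the largest of all members (adj. P-value 4.53e-18), and SLC24A4 alone among the 79 was called higher at each of the 3 steps. At 65 dph, 1 female sample had 36.2 cpm and the other 2 had 20.7 and 21.1 cpm. SLC24A2 rose 10.9-fold, with means of 1.40 ± 0.487, 13.1 ± 1.22, 13.3 ± 2.5 and 18.2 ± 2.91 cpm, and its last step was also called (log2 fold change 0.46, adj. P-value 0.00709). SLC8A1, the sodium-calcium exchanger that does not use potassium, averaged 206 ± 17.6 cpm at 20 dph and 144 ± 7.91 cpm at 1 dph, and its log2 fold change of 0.35 was not called without TMM. The proton exchanger SLC9A7 and SLC8B1 of mitochondria changed by less than 1 on the log2 scale.

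All 6 carriers of sugars and phosphorylated sugars were higher, against 35.1% of all tested genes. Each is in the study's own list of genes higher at every later age in these samples. Their count thus describes the set only. The glucose transporter of blood vessels and glia, SLC2A1 (GLUT1), averaged 45.7 ± 6.14, 77.5 ± 4.22, 81.1 ± 5.90 and 71.9 ± 4.16 cpm in order of age. The neuronal glucose transporter SLC2A3 (GLUT3) averaged 75.3 ± 2.91, 161 ± 8.53, 151 ± 3.99 and 149 ± 10.3 cpm. The rises were 1.68-fold and 2.04-fold, and the log2 ratio of SLC2A3 to SLC2A1 was 0.32 higher at 20 dph than at 1 dph (exact permutation test, adjusted p = 0.0195). It was 0.16 lower at 65 dph than at 20 dph and 0.16 higher in adults than at 65 dph (exact permutation tests, adjusted p = 0.0422 and 0.039), and the middle one of these 3 differences lost its call in 9 of the 12 sets with a sample left out. SLC2A13, which couples myo-inositol to protons, rose 4.42-fold. SLC5A11, which couples it to sodium, rose 5.79-fold but held no more than 2.04 cpm in any sample. It passed the limit of 1 cpm through later samples only, so that its rise is tied to that limit. SLC37A2, an exchanger of phosphorylated glucose, had 35.2 ± 4.0 cpm at 20 dph and 6.10 ± 1.69 cpm at 1 dph. Of 17 genes of glycolysis, 10 could be paired with the counts, and 9 of these were higher while HK2 was not called (log2 fold change -0.17). Symbols were known mostly for genes that the study listed for a result, so that this count describes the paired genes only.

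The 4 carriers of zinc and other metals were higher as well, against 35.1% of all tested genes. All but SLC30A5 have a symbol only through an age result. SLC39A12, a zinc importer of brain, had between 41.1 and 56.2 cpm in all later samples, against 4.23, 5.44 and 7.87 cpm as the lowest, median and highest at 1 dph, an 8.53-fold rise (adj. P-value 1.17e-19). The zinc transporter SLC30A5 of the secretory pathway, on chromosome Z, changed by 0.29 only, and this was not called without TMM (0.04). SLC30A2 averaged 1.17 ± 0.410 cpm at 20 dph and 0.0898 ± 0.0866 cpm at 1 dph, where the mean lay under the value of 3 counts. It passed the limit of 1 cpm through later samples only, so that its rise is tied to that limit.

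Of 12 mitochondrial carriers, 9 were higher, 1 was lower and 2 were not called, against 35.1% higher and 37.2% lower of all tested genes. All but SLC25A1, SLC25A46 and SLC25A51 have a symbol only through an age result, so that this count describes the set only. The ADP/ATP carriers SLC25A4 and SLC25A5 rose by 1.34 and 1.05 on the log2 scale, and the aspartate-glutamate carriers SLC25A12 and SLC25A13 by 1.11 and 0.65. SLC25A27 (UCP4), an uncoupling protein of brain, rose 5.95-fold, with means of 4.58 ± 0.471, 22.3 ± 3.28, 30.3 ± 4.02 and 30.3 ± 4.11 cpm. Its relative SLC25A30 averaged 2.63 ± 0.362, 12.6 ± 1.21, 8.55 ± 0.944 and 5.29 ± 0.639 cpm, a rise that was followed by a fall at both later steps. The citrate carrier SLC25A1 (ENSTGUG00000008870, chromosome 15), which exports citrate for the synthesis of fatty acids and cholesterol, went the other way. It had 72.4, 73.4 and 83.8 cpm at 1 dph, 27.1, 30.3 and 33.7 cpm at 20 dph, 22.8, 23.5 and 24.9 cpm at 65 dph, and 18.8, 19.2 and 20.0 cpm in adults. None of these 4 ranges overlapped another, and each step was called lower (log2 fold changes -1.31, -0.36 and -0.30). The plasma membrane citrate importer SLC13A5, in contrast, rose 3.94-fold, with 81.0 ± 6.20 cpm at 20 dph against 17.4 ± 2.09 cpm at 1 dph, and fell at both later steps.

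The largest fall with age was that of SLC7A10 (ENSTGUG00000009432, chromosome 11), the exchanger Asc-1 of small neutral amino acids such as serine and glycine. It had 40.0, 45.8 and 49.6 cpm at 1 dph, 14.5, 15.9 and 19.8 cpm at 20 dph, 9.27, 10.4 and 16.4 cpm at 65 dph, and 9.37, 11.1 and 13.3 cpm in adults, a log2 fold change of -1.84 ± 0.08 (SE, adj. P-value 4.26e-16). Every later sample lay under every sample at 1 dph. SLC44A2, a relative of the choline transporters, had a mean of 27.0 ± 2.87 cpm in adults and of 92.7 ± 4.46 cpm at 1 dph. The orphan SLC35G2 fell at each of the 3 steps, with means of 53.6 ± 4.60, 28.6 ± 2.01, 16.7 ± 1.76 and 14.2 ± 0.889 cpm.

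**Figure D4:**
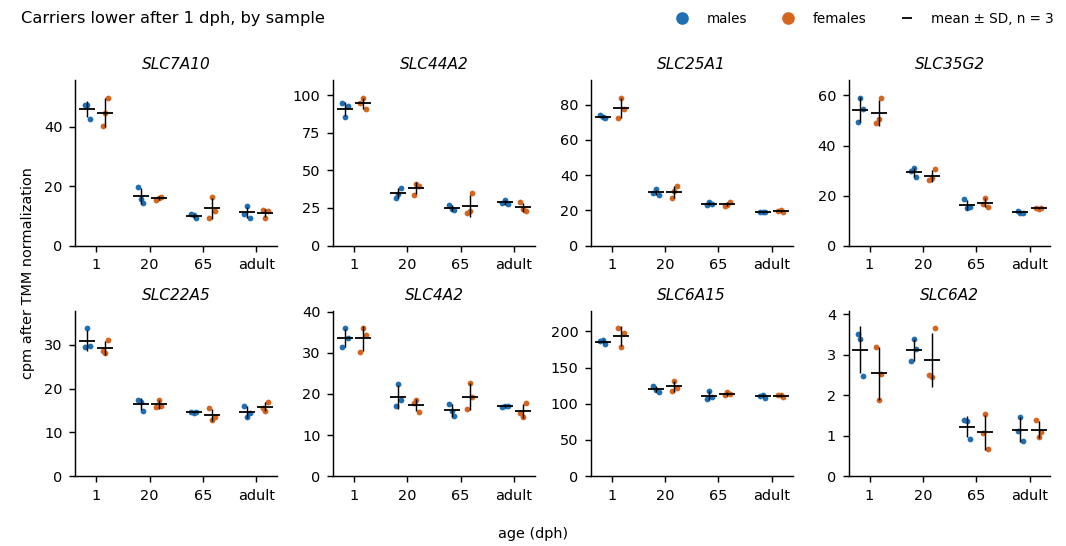
Level of 8 carriers that were lower after 1 dph in each of the 24 samples, in cpm after TMM normalization against age in dph, with males in blue and females in orange and the mean ± SD of 3 samples in black. In SLC7A10, SLC44A2, SLC25A1 and SLC35G2 all later samples lie under those at 1 dph, whereas SLC6A2 is lower only from 65 dph on.

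In the remaining groups, relatives moved in both directions. Over all tested genes, 35.1% were called higher and 37.2% lower. All but SLC38A9, SLC27A6, SLC14A1, SLC44A1, SLC35D2 and SLC49A3 have a symbol only through an age result. The counts of these groups thus describe the set only. Of 9 other carriers of amino acids and peptides, 5 were higher and 4 lower. SLC7A14 of lysosomes rose 4.71-fold, to 83.4 ± 3.03 cpm at 65 dph against 15.6 ± 2.40 cpm at 1 dph, and the peptide carrier SLC15A2 rose as well, with means of 8.74, 35.5, 31.1 and 39.1 cpm. The large neutral amino acid transporter SLC7A5 (LAT1) of the blood-brain barrier averaged 89.6 ± 8.63 cpm at 1 dph, 86.2 ± 12.4 cpm at 20 dph and 64.8 ± 3.09 cpm at 65 dph. Among 6 carriers of hormones, carboxylates, lipids and organic ions, 3 were higher and 2 lower. The carnitine carriers SLC22A16 and SLC22A5 moved in opposite directions (log2 fold changes 1.90 and -0.98), and the bile acid carrier SLC10A1 rose 4.22-fold. Of 7 carriers of vitamins, choline, urea and bases, 4 were higher and 3 lower. The choline transporter SLC44A1 on chromosome Z rose 2.43-fold, and the ascorbate transporter SLC23A2 by 0.69 on the log2 scale, whereas SLC5A6, which carries biotin and pantothenate, and the purine base carrier SLC43A3 fell (-0.81 and -0.65). Of 5 nucleotide sugar carriers and orphans, SLC35F3, SLC49A3 and SLC35D3 were higher and SLC35G2 and SLC35D2 lower, the largest rise being 5.53-fold in SLC35F3.

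The age at which the members changed was assessed step by step, each step with Benjamini-Hochberg adjustment over all tested genes. Between 1 and 20 dph, 61 members were higher and 14 lower, against 35.9% and 38.5% of all tested genes. Between 20 and 65 dph, 8 members were higher and 24 lower, against 14.6% and 15.4% of all tested genes. Between 65 dph and adulthood, 8 were higher and 7 lower, against 10.5% and 10.7% of all tested genes. The last 2 counts moved in both directions when 1 sample was left out, each between 4 and 10. The count of members called higher was 4 without male sample 3 of the adults. It was 5 without female sample 2 of the adults, male sample 2, female sample 2 or female sample 3 at 65 dph. The count of members called lower was 4 without male sample 1 at 65 dph.

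A rise at the first step with no later call was the most frequent course, in 36 members, among them SLC17A6, SLC32A1 and SLC12A5. A rise followed by a fall between 20 and 65 dph occurred in 11 members, 4 of which, SLC1A3, SLC4A8, SLC13A5 and SLC25A30, fell again at the last step. A fall at both of the first 2 steps was seen in 10 members, and SLC25A1 and SLC35G2 of these fell at all 3. SLC6A2, SLC7A5 and SLC12A2 were lower at the middle step only, and SLC25A46, in both sexes together, fell first and then rose at both later steps. Males held 97 to 113 cpm of SLC25A46 at 1 dph and 79 to 83 cpm at 20 dph. Females held 65 to 71 cpm and 65 to 67 cpm, and steps were not tested in each sex. The mean level was highest at 1 dph in 15 members, at 20 dph in 28, at 65 dph in 13 and in adults in 23. Neither the courses nor the ages of the highest mean were counted over all tested genes. Most members have a symbol only through an age result, so that these counts describe the set only. The sugar carrier SLC37A2 and the bile acid carrier SLC10A1 were among those that rose and then fell.

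Of the members, 14 are Z-linked, and males, which have 2 Z chromosomes, carry an additional copy of them. The log2 ratio of males to females was above 0 in all 14 at 1 dph, with a median of 0.80 and a range from 0.27 to 1.18. At 20 dph the median was 0.35, at 65 dph 0.60, and in adults 0.13. Over all 639 tested Z-linked genes, the medians at the 4 ages were 0.75, 0.63, 0.71 and 0.19. Higher expression in males was called for 11, 7, 10 and 2 of the 14 at the 4 ages in order, against 80.9%, 67.9%, 74.6% and 28.6% of all Z-linked genes, and none was called lower. With Benjamini-Hochberg adjustment per age in place of the stagewise procedure, the counts were 10, 4, 6 and 0, and at an unadjusted p under 0.05 they were 13, 9, 12 and 2. Shares of all 639 Z-linked genes were counted for the stagewise procedure only. Of all tested genes on any chromosome, 5.59%, 4.45%, 4.87% and 2.15% were called for sex at the 4 ages in either direction. The samples of the sexes did not overlap in 13, 9, 11 and 1 of the 14 at the 4 ages in order. The 1 member in adults was SLC25A46. The same count over the 639 tested Z-linked genes was not made, so that these counts describe the members only and are no trait of them.

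**Figure D5:**
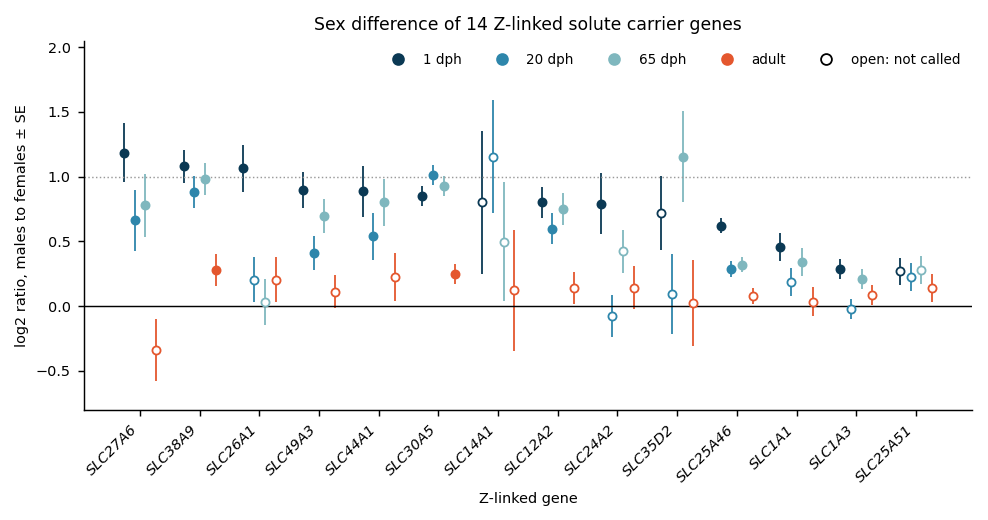
Log2 ratio of males to females with its standard error for the 14 Z-linked members at 1, 20 and 65 dph and in adults, ordered by the ratio at 1 dph. Filled symbols passed the stagewise test, and the dotted line marks a ratio of 2-fold. The adult values lie between -0.34 and 0.28, whereas those at 1 dph lie between 0.27 and 1.18.

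SLC30A5 was higher in males without overlap at the 3 younger ages. At 1 dph its levels were 145, 147 and 148 cpm in males and 76.5, 79.1 and 88.1 cpm in females. At 20 dph they were 182, 191 and 194 cpm in males and 91.8, 94.0 and 94.9 cpm in females, and at 65 dph 183, 190 and 198 cpm in males and 97.9, 99.8 and 102 cpm in females. In adults they were 125, 136 and 165 cpm in males and 112, 117 and 129 cpm in females, so that the sexes overlapped at this age only. The log2 ratios were 0.85, 1.01, 0.93 and 0.25, each with a standard error of 0.08, and the adult value had an adj. P-value of 0.00343 by the stagewise procedure and of 0.58 after adjustment per age.

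SLC38A9, a lysosomal carrier that reports arginine to the growth regulator mTORC1, had a similar course. It had 22.8, 28.5 and 34.4 cpm in adult males and 22.8, 23.4 and 24.6 cpm in adult females, against 24.4, 25.5 and 25.8 cpm in males and 10.6, 11.8 and 13.4 cpm in females at 1 dph. Its log2 ratios were 1.08, 0.88, 0.98 and 0.28 in order of age. The adult ratio was called by the stagewise procedure, although the sexes overlapped. This call was lost with adjustment per age, with DESeq2 and without TMM (stagewise adj. P-value 0.0788). It was also lost in 4 of the 24 sets with a sample left out. In SLC12A2, adult males held 30.4, 40.8 and 41.6 cpm and adult females 29.1, 32.2 and 40.9 cpm, whereas at 1 dph the males held 51.8, 55.3 and 57.0 cpm and the females 30.6, 31.6 and 31.9 cpm. Its log2 ratios were 0.80, 0.60, 0.75 and 0.14, so that males had more SLC12A2 RNA at the younger ages while SLC12A5, on chromosome 20, was not called for sex at any age. The proteins were not measured.

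The sex effect in adults was compared with its mean over the 3 younger ages in the same fit. This difference was called for 5 members, all Z-linked and all with a smaller ratio in adults, against 1.66% of all tested genes in either direction. Among Z-linked genes, a smaller ratio in adults was called for 35.7% of the 14 members and for 34% of all 639 tested, so that the share in the members was near that of the chromosome. They were SLC30A5 (-0.68 ± 0.09, SE, adj. P-value 0.000187), SLC38A9 (-0.70 ± 0.14, adj. P-value 0.00648), SLC25A46 (-0.33 ± 0.07, adj. P-value 0.00922), SLC27A6 (-1.21 ± 0.28, adj. P-value 0.018) and SLC12A2 (-0.57 ± 0.14, adj. P-value 0.032). Without male sample 1 of the adults, the count was 3. SLC27A6, a fatty acid transport protein, held 1.69, 1.77 and 1.94 cpm in males and 1.79, 2.32 and 2.71 cpm in females as adults, a log2 ratio of -0.34 that was not called. At 1 dph it held 2.67, 3.25 and 3.34 cpm in males and 1.03, 1.28 and 1.75 cpm in females.

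SLC25A46, a protein of the outer mitochondrial membrane, changed with age in opposite directions in the sexes after TMM normalization. It had 94.3, 94.5 and 99.7 cpm in adult males against 97.4, 103 and 113 cpm in males at 1 dph, and 89.5, 90.6 and 93.2 cpm in adult females against 64.6, 68.2 and 70.6 cpm in females at 1 dph. The log2 fold change with age was -0.22 in males alone and 0.17 in females alone, and both were called, whereas that over both sexes was -0.03. Without TMM, the change over both sexes was -0.28 and was called lower. The sexes were not fitted apart without TMM, so that the rise in females is given for TMM-normalized values only. SLC1A3 had log2 ratios of males to females of 0.29, -0.02, 0.21 and 0.09 in order of age, and at 1 dph males had 167, 171 and 172 cpm and females 127, 132 and 158 cpm. Its ratios at 1 and 65 dph were called by the stagewise procedure. The call of SLC1A3 at 65 dph was lost with adjustment per age (adj. P-value 0.279). It was also lost with DESeq2, without TMM and in 8 of the 24 sets with a sample left out. The glutamate transporter SLC1A1 had ratios of 0.46, 0.19, 0.34 and 0.04, of which those at 1 and 65 dph were called by the stagewise procedure. The call at 65 dph was lost with adjustment per age (adj. P-value 0.118).

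In SLC26A1 and SLC24A2, sex was called at 1 dph only by the stagewise procedure. SLC26A1 held 15.9, 17.1 and 20.5 cpm in males and 5.79, 9.46 and 10.3 cpm in females at 1 dph, a log2 ratio of 1.06, whereas the ratios of 0.21, 0.03 and 0.21 at the later ages in order were not called. SLC24A2 had 1.67, 1.82 and 1.83 cpm in males and 0.651, 0.959 and 1.46 cpm in females at 1 dph, a log2 ratio of 0.79 whose call was lost with adjustment per age (adj. P-value 0.0741) and without female sample 3 at 1 dph (0.55). Its ratios at the later ages in order were -0.08, 0.43 and 0.14. At 65 dph it had 14.3, 15.8 and 15.8 cpm in males and 10.3, 10.3 and 13.5 cpm in females, without overlap, and the ratio of 0.43 narrowly missed the call (adj. P-value 0.0541). This ratio was called by edgeR's likelihood ratio test (adj. P-value 0.0335), without the filter on low counts (0.0409) and in 6 of the 24 sets with a sample left out. Whether the ratio at 1 dph differed from those at later ages was not tested. SLC44A1 and the orphan SLC49A3 were called at all 3 younger ages, with ratios between 0.41 and 0.90. Their calls at 20 dph were lost with adjustment per age (adj. P-values 0.188 and 0.144). SLC35D2 was called at 65 dph only, a call lost with adjustment per age (adj. P-value 0.0934). SLC14A1 and SLC25A51 were called at no age, SLC14A1 with no more than 2.20 cpm in any sample. The likelihood ratio test called SLC35D2 at 1 dph (adj. P-value 0.0407) and SLC14A1 at 20 dph (0.0222) as well.

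Among the 65 members that are not Z-linked, sex was called at 1 age each for 3 members, that is for 1, 1, 0 and 1 of the 65 at the 4 ages in order, near the 1.92%, 1.35%, 1.45% and 0.868% of all tested genes outside chromosome Z. With adjustment per age the edgeR test called 0 of the 65 at each age, and 4, 1, 3 and 1 of them had an unadjusted p under 0.05 at the 4 ages in order. Shares of all tested genes outside chromosome Z were not counted by these 2 rules. SLC32A1 held 118, 122 and 131 cpm in males and 132, 138 and 154 cpm in females at 1 dph (log2 ratio -0.20, adj. P-value 0.0251, 0.135 after adjustment per age). SLC30A3 held 10.9, 11.7 and 11.9 cpm in males and 7.16, 7.74 and 8.52 cpm in females at 20 dph (log2 ratio 0.56, adj. P-value 0.0126, 0.101 after adjustment per age). SLC6A7 held 40.0, 42.2 and 53.6 cpm in adult males and 32.4, 35.7 and 39.6 cpm in adult females (log2 ratio 0.33, adj. P-value 0.0424, 0.708 after adjustment per age). In each of the 3 the sexes did not overlap at that age, but they were named for calls on the same samples, so that this adds no support. The sexes were also apart without a call, in SLC1A6 at 65 dph. Non-overlap was not counted over all tested genes.

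Genes that work with the carriers were read in the same fit, as far as their symbols could be paired with the counts. Such symbols were known mostly because the study listed the gene for a result. The counts below thus describe the genes found only, beside 35.1% of all tested genes called higher after 1 dph and 37.2% called lower. All 8 identifiers found for 7 of 10 enzymes of the glutamate and GABA cycle were higher after 1 dph, among them the glutamine synthetase GLUL with means of 142, 759, 727 and 698 cpm and GAD2, which makes GABA, with 101, 296, 319 and 372 cpm. Of 6 sodium pump subunits, whose gradient drives some of these carriers, the 3 found were higher, by 1.41 to 1.87 on the log2 scale.

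Markers of cell types moved with age as well, and their part in the changes of the carriers was not tested. They were found through the same symbols, so that the counts of higher and lower markers carry the same selection. Of 7 neuronal markers, 4 were found and all were higher, with a summed level between 6182 and 6779 cpm in adults and between 917 and 1422 cpm at 1 dph. The 3 of 7 oligodendrocyte markers found were all higher, and summed to between 1980 and 2588 cpm at 20 dph and between 71.4 and 135 cpm at 1 dph. The 3 of 7 astrocyte markers found were S100B, which rose (means of 35.5 cpm at 20 dph and 5.02 cpm at 1 dph), and SOX9 and FABP7, which fell. The 3 of 6 blood vessel markers found fell, and summed to between 30.8 and 35.1 cpm in adults and between 60.7 and 78.8 cpm at 1 dph, while SLC2A1 rose. All 6 markers of dividing cells fell, with sums between 89.2 and 102 cpm in adults and between 381 and 533 cpm at 1 dph. The 2 of 5 blood cell markers found, both hemoglobin genes, were higher, and summed to between 545 and 978 cpm in adults and between 75 and 258 cpm at 1 dph. The choroid plexus markers AQP1 and KL, 2 of 4, were called higher. KL had means of 13.1, 21.4, 14.9 and 13.2 cpm in order of age, so that its adult mean was near that at 1 dph. The telencephalon markers TBR1 and EMX2 were present at every age and lower after 1 dph. None of 7 microglia markers was found.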

How the data were processed

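RNA of 24 pools, each of 3 birds, was sequenced by the authors from a stranded mRNA library. Per the labels and the study's methods, reads were aligned with STAR 2.5.2b to Ensembl taeGut3.2.4 and summarized with HTSeq 0.6.0, and FastQC 0.10.1 and SAMtools 0.1.18 were used. The strand setting of the counting is not given in the sources used here. The deposited values are raw counts per Ensembl gene, without normalization. All 24 columns were assigned, and 0 were left out. The deposited counts carry no symbols, so that symbols and chromosomes were taken from the study's tables. The RefSeq gene table used here gives no Ensembl identifiers, so that no sequence, coordinate or gene length is given.

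Counts were analysed with edgeR 4.0.16 in R 4.3.3. A gene entered the test with 1 cpm or more in 3 samples or more. The model used TMM normalization and a quasi-likelihood fit of 8 group means. An omnibus test over 5 contrasts (age, and sex at 4 ages) used Benjamini-Hochberg at 0.05 over all genes, and Holm's method followed within each passing gene. The age contrast is the mean of the 3 later ages minus 1 dph. Steps between ages and the change of the sex effect in adults used Benjamini-Hochberg over all genes. Ratios within a sample (log2 cpm, prior count 2) were tested by exact two-sided permutation over all samples of 2 ages, and also within each sex. Python 3.11.15 with numpy 2.4.6, pandas 2.3.3, scipy 1.17.1 and matplotlib 3.10.9 was used for ratios and figures. The fit was tested on simulated data.

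The members and all lists were chosen with earlier results of these data known. Named are all members of the glutamate, vesicular, SLC6 and chloride groups, all Z-linked members, SLC2A1, SLC2A3 and SLC2A13, the largest rise and fall of each group, the 5 largest rises and falls of all members, members with steps in opposite directions, and members called for sex. Some genes that this rule or the lists hold are counted but not reported here by name. Other members were named after their values were seen, as examples of their group. Alternatives were DESeq2 1.42.0 with its Wald test, its size factors, no TMM, the likelihood ratio test, no filter, adjustment per contrast, one sex, a prior count of 0.25 and each sample left out. Since birds were pooled, P-values measure the spread between pools. Between 16680575 and 28772178 reads were counted per sample, and floors cover counting error only.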

Additional observations from a re-analysis of the deposited data

Results flagged for a closer look

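The difference between the sex effect in adults and its mean over the younger ages was called for 5 Z-linked members, on the log2 scale -0.57 for SLC12A2, -0.33 for SLC25A46, -1.21 for SLC27A6, -0.68 for SLC30A5 and -0.70 for SLC38A9, with the tests given above. Without male sample 1 of the adults, 3 members were called.

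Single samples far from the other 5 of their age were looked for in the named members that are not Z-linked, on log2 cpm by Dixon's criterion on the gap over the range, which chance passes in about 1 of 20 groups. Of 152 sets of 6 samples, 5 passed. SLC1A2 had 261 cpm in female sample 1 of the adults, against 172 to 189 cpm in the other adults. SLC2A3 had 131 cpm in male sample 1 of the adults, against 148 to 159 cpm. SLC10A1 had 6.99 cpm in female sample 3 at 65 dph, against 10.8 to 11.3 cpm. SLC37A2 had 9.38 cpm in female sample 2 at 1 dph, against 4.48 to 5.90 cpm. SLC9A3R2 had 139 cpm in female sample 3 at 20 dph, against 108 to 118 cpm.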

How the results depend on the processing

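The 60 members higher and 15 lower after 1 dph stayed between 54 and 60 and between 15 and 18 under all alternatives, the extremes coming without TMM, which moved the median of all genes to -0.27. Of 1664 values of the age effect of 52 named members, 1651 kept direction and call, 6 lost and 6 gained a call and 1 reversed, SLC25A46 in females only (0.17). Without TMM, SLC25A46 (-0.28) and SLC27A6 (-0.34) were also called lower, and SLC38A9 was not called (0.15). Of 1680 sex ratios, 44 lost and 23 gained a call and 0 reversed. Members called for sex were 4 at 20 dph, 6 at 65 dph and 0 in adults with adjustment per contrast, and 5, 6 and 0 with DESeq2, against 8, 10 and 3. At an unadjusted p under 0.05, edgeR counted 2 Z-linked members and 1 other in adults. Members lower between 65 dph and adulthood were 4 without TMM and 11 with DESeq2, against 7.

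Leaving out each sample gave 3 to 6 members for the change of the sex effect (an alternative added after the values were seen), 1 to 3 for sex in adults, 4 to 10 higher and 4 to 10 lower between 65 dph and adulthood. The ratio differences ranged from 0.33 to 0.56 (SLC12A5 over SLC12A2) and -0.30 to -0.16 (SLC1A2 over SLC1A3, called without male sample 2 at 20 dph) and -0.20 to -0.13 (SLC2A3 over SLC2A1), all for 65 against 20 dph. Exchanging ages within each sex (added after the values were seen) called the difference of 0.43 for SLC12A5 over SLC12A2 and changed no other call of the 9. With 3 samples of 1 sex an exact test cannot pass. Steps were re-run as counts only. SLC genes of the RefSeq table outside the study's tables could not be paired with the counts, so that this alternative was not run. No paired analysis was possible because the replicate numbers only name samples.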
